A study of Mus musculus with 39 samples.

Results

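The homeobox and Pax lineage factors are transcription factors that specify body regions, eye, brain and organ fields in the later embryo. Their members here were all probes whose gene symbol belongs to the Hox, Vax, Hesx, Lhx, Dlx, Nkx, Pax, Otx, Emx or Msx families or to the Six-family. The rule used names only and no measured value, and it found 121 probes of 55681, which measure 92 genes of 22328 named genes. They were 11 Hoxa, 10 Hoxb, 9 Hoxc and 9 Hoxd genes, 14 Nkx, 9 Pax, 8 Lhx, 6 Dlx, 6 Six-family and 3 Msx genes, and 2 genes each of Vax, Otx and Emx with 1 of Hesx.

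The arrays measured RNA of mouse oocytes and embryos, with 100 oocytes or embryos per array and 3 arrays in each of 13 conditions. By the paper's methods, MII oocytes came from B6D2F1 females, and sperm of ICR males was used to make the embryos. The 8 untreated conditions were GV (germinal vesicle) and MII (metaphase II) oocytes, 1-cell, 2-cell, 4-cell and 8-cell embryos, morulae and blastocysts. The other 5 conditions were embryos treated as zygotes with an inhibitor of histone deacetylases (HDACi) at 10 µM for 6 h, starting 4 h after insemination, and then returned to normal medium. T247 is an inhibitor of HDAC3, and its embryos were collected at the 1-cell (12 h), 2-cell (24 h) and 4-cell stage (48 h). MGCD0103 is an inhibitor of HDAC1, HDAC2 and HDAC3, and its embryos were collected at the 1-cell and the 2-cell stage. The paper reports that embryos treated with this inhibitor developed no further, and proposes that T247 delays development. The part of such an arrest or delay in the differences from controls of the same hour was not tested. All embryos came from in vitro fertilization and every array pooled its embryos, so fewer transcripts per embryo and fewer embryos with a transcript cannot be told apart.

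A homeodomain is a DNA-binding fold, and the Hox genes that carry it lie in 4 clusters, Hoxa to Hoxd, whose order along the chromosome matches their order of use along the body axis. Pax proteins bind DNA through a paired domain, and Six-family, Lhx, Nkx, Dlx, Otx, Emx and Msx proteins act in eye, brain, limb and gut development. In differentiated and pluripotent cells many of these genes are kept silent by Polycomb complexes, and their promoters lie in CpG islands. Before implantation most of them have no established role, with exceptions such as Lhx8, a factor of oocyte growth.

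Signals are given as log2 of the scanner's background-corrected intensity after smooth quantile normalization, and an LFC is a difference of such log2 values. A probe that the scanner software did not flag as well above background carries only an upper bound, and a gene counted as detected in a condition when a probe of it was flagged on all 3 arrays. A gene was called when its LFC was at least 1 in size and its adjusted p in limma was below 0.05 over all 17601 genes tested. Of the 92 members 71 were tested and 21 were not, because their probe was not flagged on all 3 arrays of any condition. No array flagged Hoxa11, Hoxb1, Hoxb8, Hoxc5, Hoxc8, Nkx2-1, Pax1, Pax4 or Pax7, which are 9 of those 21.

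The control arrays of replicate 1, 2 and 3 lay on 3 slides, the T247 arrays on 2 others and all MGCD0103 arrays on another, so treatment and slide cannot be told apart. Arrays of 1 condition correlated at 0.985 or more with the exception of the 2-cell controls, whose lowest pair correlated at 0.931. Control replicate 1 of the 2-cell stage stood apart, and results that rest on it are given with and without it. Each SE and p-value of limma rests on 1 estimate of the gene's spread over all 13 conditions. At the 2-cell stage they therefore do not measure the spread of the arrays compared, and can be too small where the controls differ widely. The lowest signal flagged as well above background ranged from 15.9 to 29.2 on control arrays and from 11.5 to 17.1 on treated arrays, so that dimmer probes could be flagged on treated arrays. The part of this difference in the detection counts was not tested.

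Promoters of 62 of the 92 members were found in the RefSeq table (GRCm38.p6), each from 250 bases before to 50 bases after the start of transcription, 75 promoters in all. Their median count of CG dinucleotides was 17 per promoter against 7 over all 32851 promoters of the table. The GC box GGGCGG was found on either strand in 56% of members' promoters and in 35.7% of all promoters. The letters TATAAA were found in 12% against 13.6%, CCAAT in 49.3% against 37.4%, and TAAT, the core of many homeodomain sites, in 61.3% against 58%. These letters are matches on either strand and describe the windows only. The 250 bases before the start are shown for 4 members whose values changed with both inhibitors at the 2-cell stage, to set Hesx1 and Hoxd8, the only members with lower signal that had a promoter in the table, beside Hoxd10 and Six2, which had higher signal. Capitals mark each CG.
Hesx1 (chr14:27000112-27000361, plus strand): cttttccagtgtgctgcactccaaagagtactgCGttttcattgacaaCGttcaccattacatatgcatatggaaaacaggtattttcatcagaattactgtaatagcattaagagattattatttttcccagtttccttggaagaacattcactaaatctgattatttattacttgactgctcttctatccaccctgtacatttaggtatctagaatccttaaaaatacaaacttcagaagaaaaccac
Hoxd8 (chr2:74704365-74704614, plus strand): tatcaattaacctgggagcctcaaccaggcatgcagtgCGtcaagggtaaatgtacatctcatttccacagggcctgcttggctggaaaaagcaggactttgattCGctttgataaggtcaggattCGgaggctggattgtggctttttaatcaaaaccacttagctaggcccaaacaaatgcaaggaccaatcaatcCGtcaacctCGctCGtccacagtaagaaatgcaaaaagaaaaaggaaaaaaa
Hoxd10 (chr2:74691641-74691890, plus strand): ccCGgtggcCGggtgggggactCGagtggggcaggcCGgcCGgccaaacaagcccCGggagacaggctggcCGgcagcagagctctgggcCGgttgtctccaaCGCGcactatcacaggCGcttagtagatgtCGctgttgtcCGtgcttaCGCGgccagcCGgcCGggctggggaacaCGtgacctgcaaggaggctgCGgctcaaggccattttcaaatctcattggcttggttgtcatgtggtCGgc
Six2 (chr17:85688255-85688504, minus strand): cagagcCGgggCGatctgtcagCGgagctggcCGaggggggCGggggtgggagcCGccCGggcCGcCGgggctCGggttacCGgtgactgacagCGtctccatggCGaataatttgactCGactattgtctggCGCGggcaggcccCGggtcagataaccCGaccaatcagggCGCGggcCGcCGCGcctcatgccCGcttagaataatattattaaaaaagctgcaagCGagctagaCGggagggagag
The stretch of Hesx1 held 2 CG dinucleotides and that of Hoxd8 held 6. The stretch of Hoxd10, which lies in the same Hox cluster as Hoxd8, held 20, and that of Six2 held 26. The 4 were picked as examples and do not stand for all members of a direction. Over the 19 promoters of 18 members with higher signal under both inhibitors at the 2-cell stage, the median was 21 per whole promoter. Among these, Hoxd4 held 4 and Hoxc4 held 9, where the whole promoters of Hesx1 and Hoxd8 held 4 and 6. Over the 39 promoters of 28 further tested members the median was 17, and over the 15 promoters of the members not tested it was 15.

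In untreated material the homeobox and Pax factors were detected less often than genes in general at every stage. GV oocytes had 40 of the 92 members detected (43.5%, against 66.6% of all named genes) and MII oocytes 30 (32.6%, against 57.8%). The count was 29 in 1-cell embryos (31.5% against 58.9%), 41 in 2-cell embryos (44.6% against 60.7%) and 24 in 4-cell embryos (26.1% against 56.5%). It was 24 in 8-cell embryos, 23 in morulae and 33 in blastocysts, where 35.9% of members and 62% of all genes were detected. The number of members detected was thus higher in GV oocytes, 2-cell embryos and blastocysts than at the stages between them.

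With either HDACi the 2-cell embryo had more of these factors detected than any untreated stage. T247 embryos had 63 of 92 members detected (68.5%) and MGCD0103 embryos 57 (62%), against 41 in the controls. The share of all genes detected was 67.9%, 66.8% and 60.7% in the same conditions. On single arrays, the T247 2-cell embryos had 71, 74 and 82 member probes well above background, the MGCD0103 embryos 71, 66 and 80, and the controls 45, 65 and 57. Control replicate 1 was the lowest of these arrays, and each treated array had more than every control array, by 66 against 65 at the closest. At the 1-cell stage 38 members were detected with T247 and 38 with MGCD0103 against 29 in controls, while the share of all genes was 63.7% and 63.4% against 58.9%. At the 4-cell stage 40 were detected with T247 against 24, while the share of all genes was 61.5% against 56.5%.

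**Figure D1:**
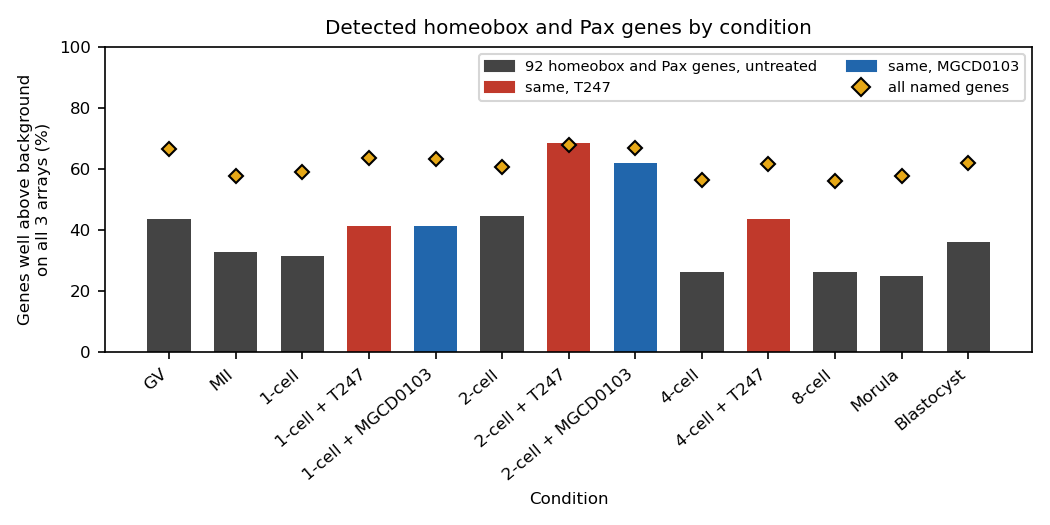
Share of the 92 homeobox and Pax genes (bars) and of all 22328 named genes (diamonds) that were well above background on all 3 arrays of a condition, in percent. Dark grey bars are untreated, red bars T247 and blue bars MGCD0103; the bar of T247 2-cell embryos reaches 68.5%, and bars of untreated stages lie between 25 and 44.6%.

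Probes flagged on all 3 treated arrays and on no control array numbered 8 of 121 member probes for T247 at the 2-cell stage, where the share over all probes was 1.95%. They numbered 7 for MGCD0103 at the 2-cell stage (1.85% of all probes), and 9 for T247 at the 4-cell stage (2.6%). In 1-cell embryos 2 member probes did so with T247 (1.73%) and 2 with MGCD0103 (1.23%). The reverse, on all 3 control and no treated arrays, was seen for 0 member probes, and its share over all probes was 0.0233 to 0.372% in the 5 comparisons.

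Detection widened in the 2-cell embryos in most families. All 6 Dlx genes, factors of forebrain and jaw, were detected with each inhibitor against 3 in controls, and all 8 Lhx genes against 6. The 9 Hoxc genes went from 1 detected in controls to 4 with each inhibitor, the 10 Hoxb genes from 3 to 6, and the 6 Six-family genes from 1 to 4 with T247 and 3 with MGCD0103. Of the 14 Nkx genes 7 were detected in controls, 11 with T247 and 8 with MGCD0103. The 9 Pax genes did not widen, with 4 detected in all 3 conditions.

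**Figure D2:**
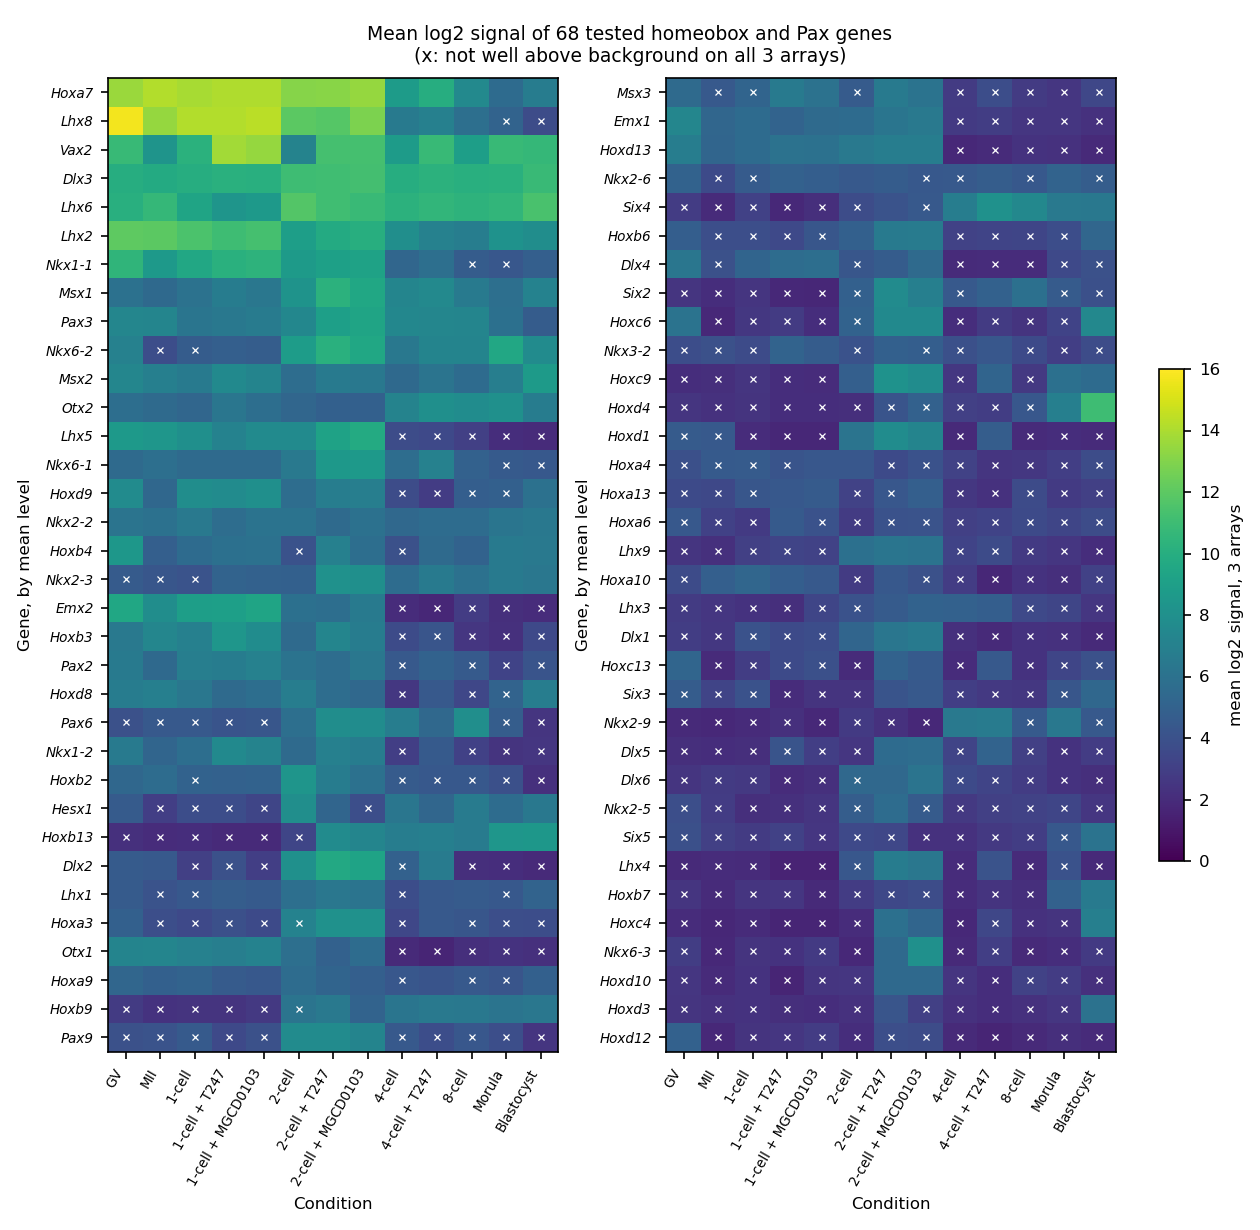
Mean log2 signal (colour) of 68 tested members in the 13 conditions, ordered by mean level; a white cross marks a condition in which the probe was not well above background on all 3 arrays. The top of the left panel holds mostly genes detected throughout, and the 2-cell columns of the right panel have fewer crosses with T247 and MGCD0103 than without.

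A core of 11 members was detected in all 13 conditions. Among them were Dlx3, Hoxa7, Lhx2, Lhx6, Msx1, Msx2, Nkx2-2, Otx2, Pax3 and Vax2. Another 9, among them Hoxa9, Hoxb4, Hoxd8, Lhx8, Nkx1-1, Nkx2-3, Nkx6-1 and Nkx6-2, were detected in 10 to 12 conditions. Signals of different probes are not on a common scale, so levels are compared here only within a gene.

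Vax2, a ventral eye factor, had higher signal in all 5 comparisons of treated with untreated embryos. Its log2 signal in untreated 1-cell embryos was 9.93, 10.17 and 10.49, against 13.85, 13.63 and 13.88 with T247 and 13.70, 13.55 and 13.25 with MGCD0103. In 2-cell embryos the controls read 7.61, 6.79 and 7.08, T247 embryos 11.43, 11.34 and 11.08 and MGCD0103 embryos 11.28, 11.15 and 11.46. No treated value overlapped a control value at either stage, and every array was well above background. At the 4-cell stage the controls read 8.61, 8.97 and 8.74 and the T247 embryos 10.78, 10.60 and 10.94. The LFC at the 1-cell stage was 3.59 (SE 0.20, adjusted p = 1.62e-13 in limma) with T247 and 3.30 (SE 0.20, adjusted p = 1.43e-12) with MGCD0103. At the 2-cell stage it was 4.12 (SE 0.20, adjusted p = 2.08e-15), a 17.4-fold higher signal, and 4.14 (SE 0.20, adjusted p = 5.31e-16), and with T247 at the 4-cell stage it was 2.00 (SE 0.20, adjusted p = 6.88e-09). The difference between the inhibitors was -0.29 at the 1-cell stage (95% interval -0.69 to 0.12) and 0.01 at the 2-cell stage (-0.39 to 0.42), neither of them called.

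Untreated Vax2 itself moved through development. Its mean fell from 10.19 in 1-cell to 7.16 in 2-cell embryos (LFC -3.03) and rose to 8.77 in 4-cell embryos (LFC 1.61). Treated 2-cell embryos, at means of 11.28 and 11.30, thus had a higher level than untreated 1-cell embryos, and treated 1-cell embryos had a higher level than every untreated stage. Vax2os, a transcript annotated beside Vax2, had an LFC of 2.53 with T247 and 2.63 with MGCD0103 at the 2-cell stage and was called in both. Among the other genes nearest to Vax2, Stambp was called higher with both inhibitors (LFC 1.00 and 2.00), Actg2, Ankrd53 and Nagk were called lower with T247, at LFCs of -1.06, -1.39 and -1.10, and Tex261 was not called (LFC 0.30 and 0.34).

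**Figure D3:**
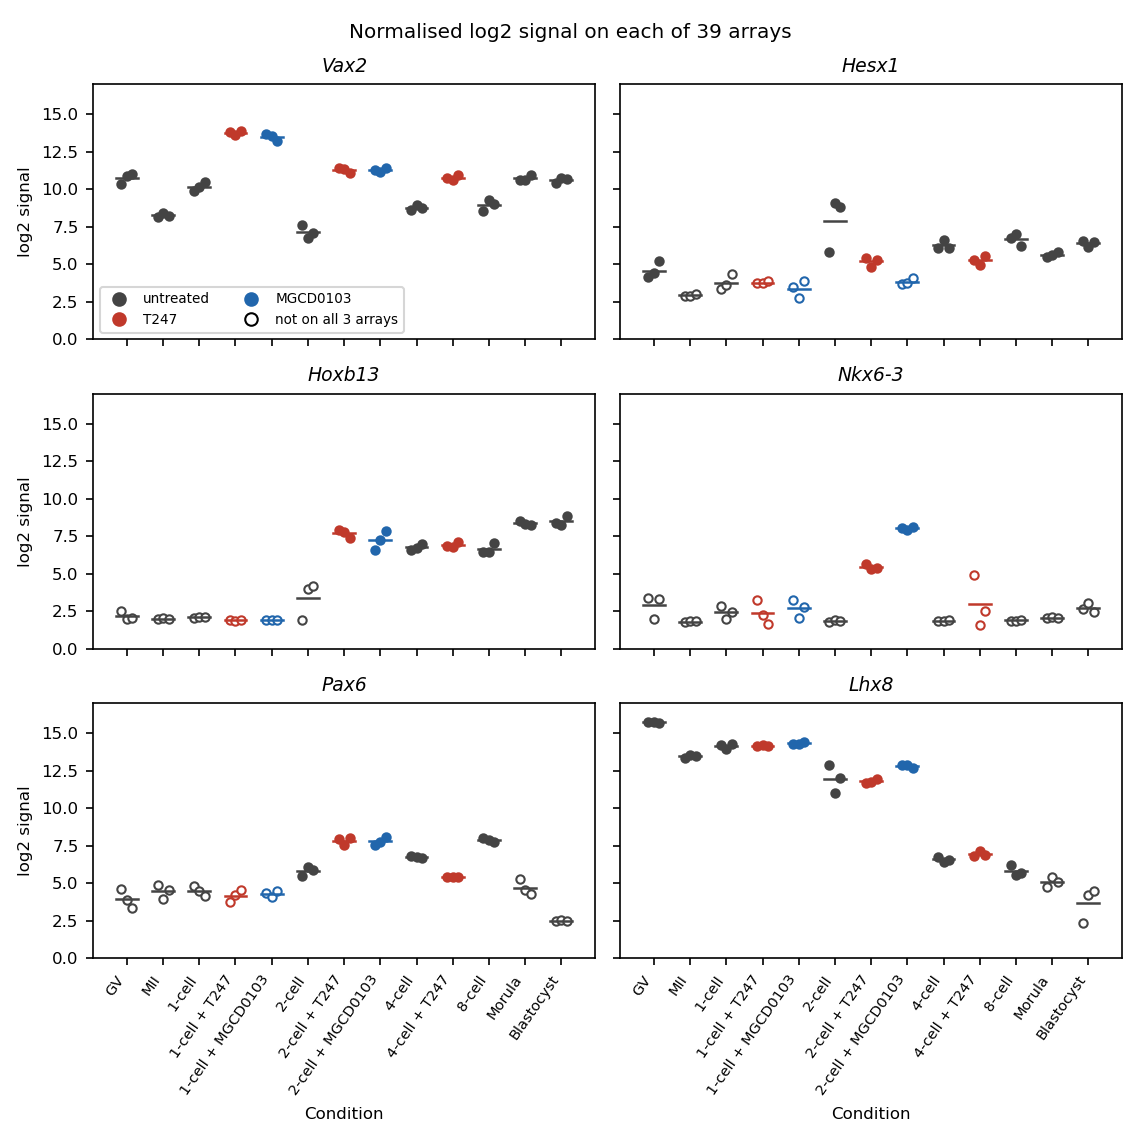
Normalised log2 signal of 6 members on each of the 39 arrays, with the mean of 3 arrays as a line; open points belong to conditions in which the probe was not well above background on all 3 arrays. Vax2 stands higher in every treated condition, Hesx1 is lower in treated 2-cell embryos, and Hoxb13 and Nkx6-3 leave background in treated 2-cell embryos.

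Hesx1, a transcriptional repressor that acts in the development of the anterior forebrain and pituitary, moved the other way. In untreated embryos it rose at the 2-cell stage, with 5.82, 9.09 and 8.85 on the 3 control arrays against 3.36, 3.65 and 4.34 at the 1-cell stage. The T247 2-cell embryos read 5.45, 4.85 and 5.31 and the MGCD0103 embryos 3.68, 3.73 and 4.09. All 6 treated values lay below all 3 control values, although control replicate 1 was close to the T247 arrays. The LFC was -2.72 with T247 (SE 0.48, adjusted p = 2.03e-05 in limma) and -4.09 with MGCD0103 (SE 0.48, adjusted p = 2.89e-08), of whose 3 arrays 1 was well above background. Without control replicate 1 these were -3.77 and -5.14. MGCD0103 embryos were lower than T247 embryos by 1.37 on the log2 scale (interval -2.35 to -0.40, adjusted p = 0.0282). At the 4-cell stage the LFC with T247 was -0.99 (adjusted p = 0.0948) and was not called. Among the nearest measured genes, Il17rd was called lower with both inhibitors (LFC -1.34 and -2.04), Dnah12 was called higher (1.24 and 1.48), and Pde12, Appl1, Arhgef3 and Tasor were called with neither.

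At the 1-cell stage few members changed. With T247, 8 of the 71 tested members were called higher, while 5.24% of all genes were, and 1 was called lower against 0.659%. With MGCD0103, 3 were called higher (3.35% of all genes) and 0 lower (0.455% of all genes), while 4 members were lower at an unadjusted p under 0.05. The members' median LFC was 0.01 with T247 and 0.08 with MGCD0103, beside -0.03 and 0.08 over all genes tested. Vax2, Nkx1-2 and Nkx3-2 were called with each inhibitor, but with MGCD0103 the call of Nkx1-2 ended in 12 of 16 alternatives (lowest LFC 0.80) and that of Nkx3-2 in 7 of 16. The mean of Nkx1-2, a factor of the posterior growth zone, was 7.61 with T247, 7.17 with MGCD0103 and 5.78 in controls (LFC 1.83, SE 0.46, and 1.38, SE 0.46). Nkx3-2 was below background on all 3 control arrays, so its rise has only a lower bound, which was at least 1.66-fold for T247 embryos and at least 1.26-fold for MGCD0103 embryos. With T247 alone the calls were Hoxa6, Hoxb3, Msx3, Otx2 and Dlx5. Hoxb3 had an LFC of 1.41 and Otx2, a head and eye factor, one of 1.02, both flagged on every array, although the Otx2 call ended in 8 of 17 alternatives (lowest LFC 0.45). Of the probes behind the others, Hoxa6 was flagged on 1 and Msx3 on 2 of the 3 control arrays, and Dlx5 on 1 T247 and no control array. Six4, the 1 member called lower with T247, was below background in both groups and has no fold. The upward share of all called genes at this stage was 88.8% with T247 and 88.1% with MGCD0103, and with 75th percentile scaling 79.7% and 70.2%, and with quantile normalization 75.7% and 74.1%.

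At the 2-cell stage a large part of the members had higher signal with both inhibitors. With T247, 32 of 71 were called higher, when 10.9% of all genes were, and 3 lower against 15.5%. With MGCD0103, 33 were called higher (14.2% of all genes) and 3 lower (15.1%). The members' median LFC was 1.00 with T247, beside -0.23 over all genes, and 1.01 with MGCD0103, beside 0.09. Both comparisons share the 3 control arrays. Hesx1, Hoxb2 and Hoxd8 were the 3 called lower in each.

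The filter could favour a member that is bright only in treated embryos, so the counts were repeated on genes detected in a condition of another stage. Then 63 members were tested, 28 were called higher with T247, beside 9.94% of 17249 genes, and 29 with MGCD0103, beside 13.3%. With no filter, 34 of all 92 members were higher with T247 (9.08% of 22328 genes) and 38 with MGCD0103 (12% of those genes). Without control replicate 1, 28 members were called higher with each inhibitor, 26 of which were among the calls with all arrays, when 12.6% and 19.6% of all genes were called higher. The calls lost included Dlx1, Hoxa10, Lhx5, Nkx1-2 and Pax3 with T247 and Dlx2, Hoxb3, Hoxb4, Lhx4, Msx3 and Nkx1-2 with MGCD0103. Members called lower without it numbered 5 with T247 (19.9% of all genes) and 9 with MGCD0103 (19.8%). With a background correction that lifts dim signals (normexp with an offset of 50), 16 and 12 members were called higher, beside 3.97% and 5.47% of all genes. Scaling moved the split of all called genes more than that of the members: with T247 41.3% of all calls were upward, 57.4% with 75th percentile scaling and 55.3% with quantile normalization, and of the members' calls 91.4%, 94.7% and 91.9%. With MGCD0103 the members' shares were 91.7%, 91.9% and 89.2%.

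**Figure D4:**
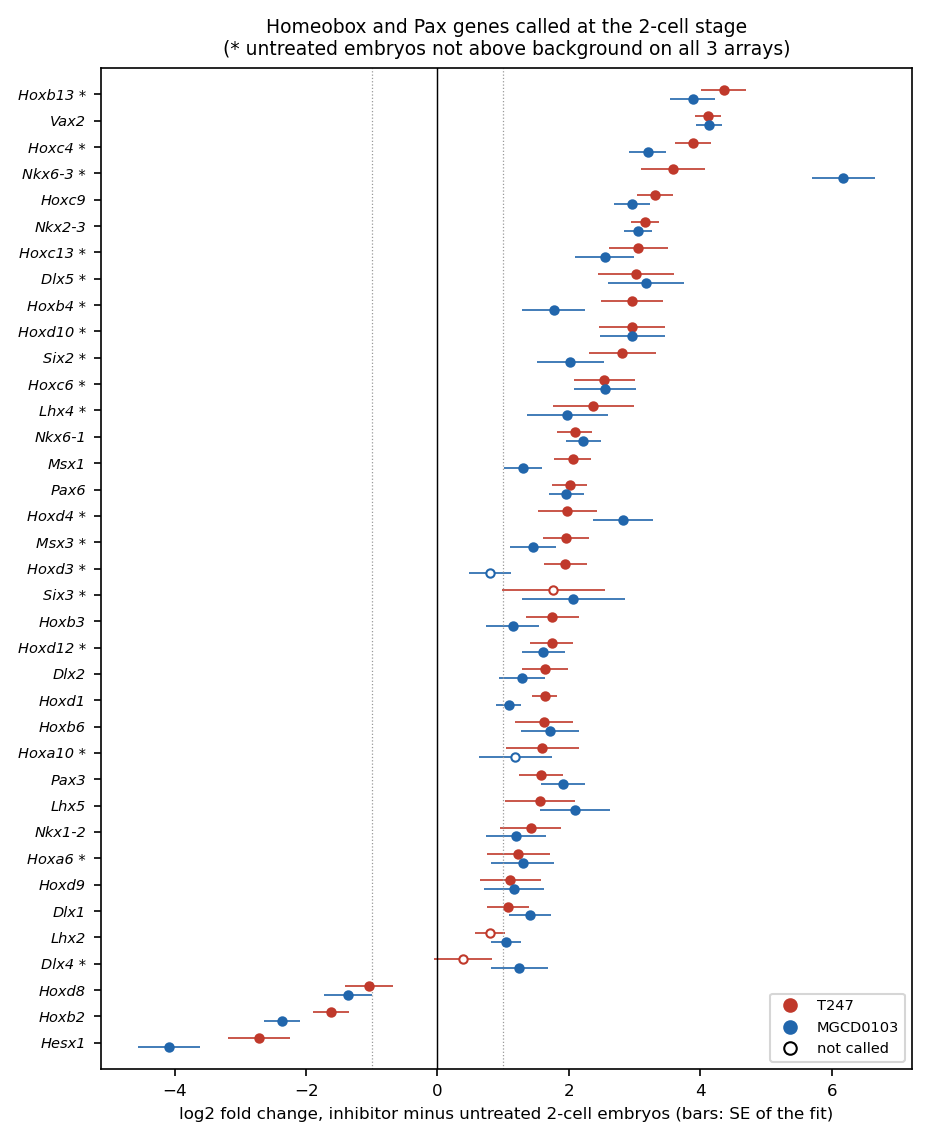
LFC and SE of 37 members called in either 2-cell comparison, T247 in red and MGCD0103 in blue, filled where called; the controls are shared. An asterisk marks members whose probe was not well above background on all 3 control arrays, and 3 members (Hesx1, Hoxb2 and Hoxd8) lie below 0.

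The Hox genes called were spread over the 4 clusters. Of 27 tested Hox genes 16 were called higher with T247 (10.9% of all genes) and 14 with MGCD0103 (14.2%). With each inhibitor 2 were called lower (15.5% of all genes with T247 and 15.1% with MGCD0103). All 4 tested Hoxc genes were higher with both inhibitors, 4 of 7 Hoxb genes with each, 6 and 5 of 8 Hoxd genes, and 2 and 1 of 8 Hoxa genes. The Hoxa count with MGCD0103 was near the share of all genes.

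Several Hox genes, which specify position along the trunk, left background in treated 2-cell embryos. Hoxb13, a gene of the tail end, read 1.93, 4.02 and 4.16 in controls, 7.95, 7.81 and 7.42 with T247 and 6.61, 7.26 and 7.88 with MGCD0103. Of the 3 control arrays 1 was well above background, and no treated value reached down to the control values. Its LFC was 4.35 with T247 (SE 0.34, adjusted p = 1.75e-11 in limma) and 3.88 with MGCD0103 (SE 0.34, adjusted p = 1.22e-10), and 3.64 and 3.16 without control replicate 1.

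Hoxc9, a trunk gene, was above background on all control arrays, with 5.32, 4.40 and 4.72 against 8.34, 7.94 and 8.10 with T247 and 7.68, 7.59 and 8.04 with MGCD0103. The groups did not overlap, and the signal was 9.95-fold higher with T247 (adjusted p = 4.06e-11 in limma) and 7.76-fold higher with MGCD0103 (adjusted p = 2.91e-10). Hoxc4 read 1.82, 2.49 and 1.83 in controls, all below background, against 5.91, 5.89 and 5.99 with T247 and 5.06, 4.95 and 5.71 with MGCD0103. Hoxc4 was thus at least 3.59-fold higher with T247, and for MGCD0103 the bound was at least 2.22-fold. Hoxd10, a gene of the hind part of the body whose promoter is shown above, read 2.74, 2.99 and 1.83 in controls, also below background. Its values were 5.47, 5.69 and 5.27 with T247, at least 2.62-fold higher, and 5.37, 5.51 and 5.57 with MGCD0103, at least 2.63-fold higher.

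Further Hox genes gave smaller or less complete changes. Hoxc13 was at least 1.95-fold higher with T247 and in MGCD0103 embryos at least 1.36-fold, and Hoxd4 at least 1.04-fold and at least 1.87-fold. Hoxd1, Hoxb6 and Hoxb3, measured on all arrays, had LFCs of 1.63, 1.63 and 1.75 with T247 and of 1.08, 1.71 and 1.15 with MGCD0103. Hoxc6 and Hoxb4 were above background on 2 of 3 control arrays, with LFCs of 2.54 and 2.96 with T247 and of 2.55 and 1.77 with MGCD0103. The Hoxb3 and Hoxb4 calls with MGCD0103 were lost without control replicate 1, where the LFC of Hoxb4 was 0.70. Hoxd9 was called with both inhibitors (LFC 1.11 and 1.16), although its treated and control values overlapped and the calls ended in 9 and 7 of 16 alternatives. Hoxd12 and Hoxa6 were too dim for a fold with T247, and the Hoxa6 calls ended in 7 of 16 alternatives with T247 and in 8 of 16 with MGCD0103. With T247 alone Hoxd3 was at least 1.08-fold and Hoxa10 at least 1.25-fold higher, and the Hoxa10 call was lost without control replicate 1.

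Among the Nkx genes, which specify ventral neural tube, gut and heart fields, Nkx6-3 separated the inhibitors. It read 1.81, 1.94 and 1.83 in controls, below background, 5.63, 5.33 and 5.37 with T247 and 8.03, 7.95 and 8.13 with MGCD0103. The 3 groups did not overlap. T247 embryos were at least 2.56-fold and MGCD0103 embryos at least 15.4-fold above the controls. A further probe of Nkx6-3 was below background on all but 1 of these arrays. Nkx2-3, a gut and spleen factor, read 5.62, 4.41 and 4.77 in controls, 8.13, 8.05 and 8.11 with T247 (8.94-fold higher, adjusted p = 1.03e-12 in limma) and 7.92, 7.93 and 8.09 with MGCD0103 (8.26-fold, adjusted p = 1.32e-12). Nkx6-1, a motor neuron and beta cell factor, read 5.90, 7.13 and 6.34 in controls and lay between 8.41 and 8.89 on all 6 treated arrays. Its signal was 4.25-fold higher with T247 and 4.66-fold with MGCD0103. Nkx1-2 was called with both inhibitors, and both calls were lost when control replicate 1 was left out.

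The eye and brain factors outside the Hox clusters changed less uniformly. Pax6, the master gene of eye development, read 5.49, 6.08 and 5.91 in controls, 7.92, 7.57 and 8.03 with T247 and 7.57, 7.74 and 8.06 with MGCD0103, without overlap. The LFC was 2.01 (SE 0.27, adjusted p = 2.79e-07 in limma) and 1.96 (SE 0.27, adjusted p = 4.64e-07). Pax3, a neural crest and muscle factor, read 5.78, 8.38 and 8.11 in controls and between 8.90 and 9.47 on the treated arrays. Its LFC of 1.58 with T247 became 0.76 and was no longer called without control replicate 1, and its LFC of 1.91 with MGCD0103 became 1.09.

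Six2, which maintains kidney progenitors and whose promoter is shown above, read 3.75, 6.18 and 4.75 in controls, 8.02, 7.64 and 7.46 with T247 and 6.48, 6.96 and 7.32 with MGCD0103. Of its control arrays 2 were above background, and the LFC was 2.81 (SE 0.51, adjusted p = 3.18e-05 in limma) and 2.02 (SE 0.51, adjusted p = 0.00142). Six3, a forebrain factor, was called with MGCD0103 alone, at least 1.28-fold higher, and the call ended in 7 of 16 alternatives (lowest LFC 0.27). Msx1, a limb and tooth factor, was 4.16-fold higher with T247 and 2.46-fold with MGCD0103. Dlx2 and Dlx1 were higher by 1.64 and 1.08 on the log2 scale with T247 and by 1.28 and 1.41 with MGCD0103, and Dlx5 was at least 2.79-fold and at least 3.09-fold higher. Lhx5 had LFCs of 1.56 and 2.09, and Lhx4 of 2.37 and 1.98. Msx3 was called with both (LFC 1.96 and 1.46, 2 of 3 control arrays above background). Without control replicate 1 the calls of Dlx1 and Lhx5 with T247 and of Dlx2, Lhx4 and Msx3 with MGCD0103 were lost. Lhx2 and Dlx4 were called with MGCD0103 alone, at LFCs of 1.04 and 1.24.

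Besides Hesx1, the members with lower signal were Hoxb2 and Hoxd8. Hoxb2, a hindbrain gene, read 8.29, 8.43 and 8.26 in controls, 6.92, 6.77 and 6.44 with T247 and 5.80, 5.84 and 6.26 with MGCD0103. The groups did not overlap, and the LFC was -1.62 (SE 0.28, adjusted p = 1.41e-05 in limma) and -2.36 (SE 0.28, adjusted p = 3.02e-08). Hoxd8 read 5.98, 7.29 and 7.09 in controls, 6.04, 5.20 and 5.98 with T247 and 5.32, 5.34 and 5.61 with MGCD0103. Its LFC was -1.05 (adjusted p = 0.0174 in limma), with overlap, and -1.36 (adjusted p = 0.00245). The call with T247 ended in 6 of 16 alternatives, where the LFC nearest to no change was -0.54. Hoxd8 was thus called lower while Hoxd10 of the same cluster was called higher.

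At the 4-cell stage, where T247 alone was measured, 14 members were called higher (12.2% of all genes) and 1 lower (5.99%). The members' median LFC was 0.35, beside -0.02 over all genes tested. Of 27 tested Hox genes 7 were called higher. Hoxa7 read 8.91, 8.70 and 8.66 in controls and 9.94, 10.14 and 9.87 with T247, without overlap (LFC 1.23, SE 0.13, adjusted p = 3.2e-08 in limma). Nkx6-1 was 2.49-fold and Six4 2.47-fold higher, both measured on all arrays. Below background in controls, Hoxd1 was at least 1.33-fold higher, Hoxc9 at least 1.85-fold, Hoxb4 at least 2.37-fold, Nkx1-2 at least 1.17-fold and Hoxd8 at least 1.13-fold. Hoxc13 was called as well, and Lhx4 was called but too dim for a fold. Dlx5 and Dlx2 were called with overlapping groups, and Hoxc4 was below background in both. Pax6 was the member called lower, at 5.43, 5.41 and 5.42 with T247 against 6.83, 6.77 and 6.70 in controls (LFC -1.35, SE 0.27, adjusted p = 0.000162). Pax6 thus stood above the controls in T247 2-cell embryos and below them in T247 4-cell embryos. Hoxd8 took the opposite course, although its T247 call at the 2-cell stage ended in 6 of 16 alternatives. Of all calls 67.1% were upward, 53.4% with 75th percentile scaling and 56.8% with quantile normalization, and of the members' calls 93.3%, 87.5% and 78.9%.

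Compared directly at the same dose and time, MGCD0103 and T247 embryos differed in few members. Over 71 members compared at each stage, with p-values adjusted over 17601 genes, 0 were called at the 1-cell stage by limma (0.222% of all genes), where 5 had an unadjusted p under 0.05. At the 2-cell stage 2 were higher with MGCD0103 (3.7%) and 2 lower (3.36%). Nkx6-3 was 6.04-fold higher with MGCD0103 (difference 2.59, 95% interval 1.60 to 3.58, adjusted p = 0.00021), and Lhx8 was higher by 1.03 (0.32 to 1.75, adjusted p = 0.0244). Hoxd3 was lower by 1.15 on the log2 scale, with overlapping values (interval -1.81 to -0.49, adjusted p = 0.00755), beside Hesx1, given above. For Hoxb13 the difference was -0.47 (-1.17 to 0.23) and for Pax6 -0.05 (-0.60 to 0.50), intervals that leave room for differences of either sign. Scaling to the 75th percentile or full quantile normalization lowered the share of all called genes that were higher with MGCD0103 from 52.5% to 27.7% and 29.8%.

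The response to an inhibitor also differed between the stages. The LFC with T247 was larger at the 2-cell than at the 1-cell stage in 26 members (6.2% of all genes) and smaller in 3 (13.7%), and with MGCD0103 it was larger in 21 (8.03%) and smaller in 2 (14.7%), by limma's test of the change itself. Hoxb13, Six3 and Nkx6-3 were among the members that changed upward with both, and Hesx1 and Hoxb2 were those that changed downward with both. Hoxb13, Six3 and Nkx6-3 were flagged on no 1-cell array, treated or untreated, so the sizes of their changes are those of the fit and no fold. Six3 was not called with T247 at the 2-cell stage itself. The counts of changed members thus include genes below background at the 1-cell stage.

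In untreated material more members were called at the steps into and out of the 2-cell stage than at any other step, as was the case for all genes. The members differed from all genes in the balance of rises and falls. From the 1-cell to the 2-cell stage 28 of 71 were called higher (20.6% of all genes) and 9 lower (33.5%), and from the 2-cell to the 4-cell stage 5 were called higher (24.7%) and 38 lower (36.7%). With 75th percentile scaling the members' counts kept both directions, with 32 higher and 8 lower and then 8 higher and 33 lower. Under this scaling the members' median LFC was 0.71 at the first step, beside -0.19 over all genes tested. At the second step it was -0.90, beside 0.14. Dlx2 entered the 2-cell stage at least 12.9-fold higher and Hoxd1 at least 3.51-fold higher, and Nkx6-2 rose by 4.20 with 2 of 3 1-cell arrays above background. Emx2 fell by 3.05, Vax2 by 3.03 and Lhx2 by 2.52 on the log2 scale. After it, Lhx8 fell by 5.38, from 12.87, 11.01 and 12.02 to 6.76, 6.42 and 6.57, and Hoxa7 fell by 4.31, from a mean of 13.06 to one of 8.76. Hoxd13 was at least 4.54-fold lower at the 4-cell stage, and Nkx2-9 at least 5.10-fold higher. Hoxb13 and Six4 rose by 3.40 and 3.06, each from 1 of 3 2-cell arrays above background.

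Later, several Hox genes rose, and some of them had not been detected before. Hoxc4 was flagged on no array of an untreated stage before the blastocyst, and Hoxb7 on none before the morula. From the 8-cell stage to the morula 14 members were higher (30.3% of all genes) and 6 lower (6.82%), and from the morula to the blastocyst 13 were higher (20.5%) and 8 lower (7.94%). Of 27 Hox genes 10 were called higher at the last step. Hoxd4 read 7.17, 7.21 and 6.33 in morulae and 11.45, 10.39 and 11.30 in blastocysts, an LFC of 4.14 (SE 0.45). Hoxc4 was at least 5.42-fold and Hoxc6 at least 8.06-fold higher in blastocysts, where Hoxc4 read 6.21, 7.19 and 7.37. At the step to the morula Hoxc9 was at least 3.03-fold and Hoxb7 at least 1.59-fold higher, Hoxd4 rose by 2.58 with 1 of 3 8-cell arrays above background, Pax6 fell by 3.18 with 2 of 3 morula arrays above background, and Hoxa7 fell by 1.95. At the last step Pax6 was at least 1.42-fold lower and Nkx2-9 fell by 1.93 with 2 of 3 blastocyst arrays above background, and Lhx4 was called lower but too dim for a fold. With 75th percentile scaling the step to the morula gave 7 higher and 17 lower, so its balance depends on the scaling, and the last step gave 8 and 9.

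The remaining steps were smaller or depended on the scaling. From GV to MII oocytes 0 members were called higher by limma (0.403% of all genes; 4 at an unadjusted p under 0.05) and 19 lower (47.2%), but with 75th percentile scaling 29 were higher and 8 lower, and with quantile normalization 14 and 9. The median over all genes at this step moved from -0.92 to 0.37 and 0.07. Hoxc6 was at least 3.74-fold and Hoxc13 at least 2.09-fold lower, and Hoxb4 fell by 3.60. From MII oocytes to 1-cell embryos 8 were higher (16.5%) and 4 lower (5.3%), and with 75th percentile scaling 4 and 5. Hoxd9, Vax2 and Pax2 rose by 2.51, 1.92 and 1.39, Lhx6 fell by 1.33, Hoxd1 was at least 1.11-fold and Dlx2 at least 1.08-fold lower. From the 4-cell to the 8-cell stage 4 were higher (7.87%) and 5 lower (7.11%). Pax6 rose by 1.12, Nkx2-9 fell by 1.89 with 2 of 3 8-cell arrays above background, Hoxa7 fell by 1.21, and Dlx2 was at least 1.56-fold lower. Over all 7 steps 62 of 71 members were called at least once, beside 93.8% of all genes.

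Where a gene had several probes, the brightest was used. Among probes above background on treated arrays, those of 3 genes disagreed at the 2-cell stage. For Lhx6 the chosen probe had LFCs of -0.60 with T247 and -0.86 with MGCD0103, and another had 4.47 and 4.32, above background on 3 treated arrays and 1 control array. For Otx2 the chosen probe had -0.34 and -0.37 and another 2.13 and 1.37, with all arrays above background. For Lhx1 the chosen probe had 0.53 and 0.34 and another 1.65 and 1.12. These members were not called, and a different choice of probe would change their direction or size. Other members called at the 2-cell stage had further probes that did not show the change. The further probes of Pax6, Six2, Six3, Hoxb3, Msx3, Nkx1-2 and Dlx1 were below background on every 2-cell array. That of Pax3 was above background on 1 MGCD0103 array and on no other array. The calls of these genes thus rest on 1 probe each.

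Genes that work with these factors were followed through lists of known partners and regulators, all at the 2-cell stage. The shares of all genes to set beside these counts were 10.9% higher and 15.5% lower with T247. With MGCD0103 they were 14.2% and 15.1%. Of 84 tested homeobox genes of other families 23 were called higher and 7 lower in T247 2-cell embryos, and 26 and 11 with MGCD0103. Obox6, an oocyte and early embryo homeobox gene, had LFCs of -2.81 and -3.81, and Hmx3 and Hmx2 were above background on all treated and no control arrays. Of 35 Polycomb subunits, which silence many Hox genes, 4 were higher and 5 lower with T247, and 3 and 6 with MGCD0103. Among them Epop had LFCs of 2.49 and 2.14 and Rbbp4 of -1.63 and -1.45. Of 16 Trithorax subunits 1 was higher and 1 lower with T247, and 2 and 1 with MGCD0103. Of 16 retinoic acid pathway genes, whose signal activates Hox genes in the later embryo, 3 were higher and 3 lower with T247, and 4 and 2 with MGCD0103. Aldh1a1, a retinoic acid synthesising enzyme, had LFCs of 2.41 and 3.33. Of 10 TALE cofactors, partners of Hox proteins, 2 were higher and 0 lower with T247, and 1 was higher and 1 lower with MGCD0103. Of 13 partners of Six-family and Pax proteins 1 was higher and 1 lower with T247, and 2 and 1 with MGCD0103.

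Markers of other cells and stages are given beside these counts, and the shares of all genes at the 2-cell stage given above hold for them too. With T247 at the 4-cell stage 12.2% of all genes were higher and 5.99% lower. Of 10 oocyte markers 3 were lower with T247 and 1 with MGCD0103, and Zp3 had LFCs of -1.70 and -1.18. Their summed signal was 234844 to 259003 in 2-cell controls, 159897 to 176879 with T247 and 229327 to 239705 with MGCD0103. Of 14 morula and blastocyst markers 5 were higher and 1 lower with T247, and 3 and 1 with MGCD0103. Of 8 tested 2-cell markers 1 was lower with MGCD0103, and with T247 at the 4-cell stage 4 were higher. Of 6 tested cumulus cell markers 1 (Ptgs2, LFC 1.39, with 0 of 3 control arrays above background) was higher and 0 lower with T247 and 0 were called with MGCD0103 by limma, with median LFCs of 0.05 and 0.55. Foxl2 had LFCs of -0.81 and -0.37, neither of which was called. The summed signal of the 6 was 7923 to 8397 with T247 and 10700 to 11506 with MGCD0103 against 13431 to 14700 in controls. Of 5 tested sperm and spermatid markers 1 was higher and 1 lower with T247, and 2 and 1 with MGCD0103. The part of these differences in the members' values was not tested.

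The nearest measured genes on either side of the members were counted in the same way. Of 117 genes next to Vax2, Hesx1 and the members called with both inhibitors, 6.84% were called higher and 13.7% lower in T247 2-cell embryos, where the shares of all genes were 10.9% and 15.5%. With MGCD0103 17.9% were called higher and 11.1% lower, beside 14.2% and 15.1% of all genes, and in T247 4-cell embryos 9.4% and 7.69%, beside 12.2% and 5.99%.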

How the data were processed

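The 39 one-colour Agilent arrays held 13 conditions of 3 independent samples. Per the file headers, Feature Extraction 10.7.1.1 made the deposited processed intensity (background-subtracted), and the labels name version 9.5.1.1. Groups came from the sample labels. One file kept 3 significant digits. No probe was saturated, and 43.7 to 57.4% of probes per array were well above background. The number of arrays limits the precision.

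Here the intensity was put on the log2 scale, and smooth quantile normalization was run over the 13 conditions on 55681 probes. Control spots and outlier flags were left out. A gene, represented by its brightest probe, was tested if the scanner flagged that probe as above background on all 3 arrays of at least 1 condition. Over 39 arrays, limma 3.58.1 (R 4.3.3) was fitted with a mean per condition, and p-values were adjusted by Benjamini-Hochberg over 17601 genes. The study's methods filter and fill in missing values, which was an alternative here. The deposited log2 values of the series table served as another. "At least N-fold" compares the mean of the brighter group with the higher of the lowest signal well above background and the dim probe's own.

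Probes were named through accessions (27235), symbols (3581) or synonyms (565) in RefSeq, and 24300 had no name. Of the member probes 110 had an accession with the same symbol and 11 had no match. On simulated data for T247 at the 2-cell stage (17601 genes), the fit recovered 82% of genes with an LFC of 1.5 and 100% with an LFC of 3. The simulation gave a gene the same spread in every condition, so it does not cover the wider spread of the 2-cell controls.

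The members and lists were chosen with earlier results of these data known. Genes were named if they were Vax2 or Hesx1, were called with an inhibitor, were detected in at least 10 conditions, or were among the 3 largest changes of an untreated step. Alternatives were other normalizations, backgrounds, filters, probe rules and blocks, and leaving out each array. A few genes that the naming rule covers are not reported here, and they remain in the counts.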

Additional observations from a re-analysis of the deposited data

Results flagged for a closer look

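The LFC of a treatment changed between the 1-cell and the 2-cell stage in 29 members with T247 (26 upward, 3 downward, beside 6.2% and 13.7% of all genes) and in 23 with MGCD0103 (21 and 2, beside 8.03% and 14.7%), as limma's test of the change itself found. Each is a difference between stages, and both stages of each group lay on the same slides. With T247 the change was 4.54 for Hoxb13 (SE 0.48), 4.21 for Hoxc4 (SE 0.39) and 3.76 for Six3 (SE 1.11). It was -2.72 for Hesx1 (SE 0.67), -1.57 for Hoxb2 (SE 0.39) and -1.36 for Otx2 (SE 0.25). The direction for Otx2 depends on the probe: another one, below background in 1-cell embryos and above it on all 2-cell arrays, had an LFC of 2.13 with T247 at the 2-cell stage, where the chosen probe had -0.34. With MGCD0103 it was 5.91 for Nkx6-3 (SE 0.68), 4.06 for Hoxb13 (SE 0.48) and 3.68 for Six3 (SE 1.11), and -3.67 for Hesx1 (SE 0.67) and -2.38 for Hoxb2 (SE 0.39). Several of these genes were below background in 1-cell embryos, so the sizes are those of the fit and no fold. For Vax2 the change was 0.53 with T247 (adjusted p = 0.164 in limma) and 0.83 with MGCD0103 (adjusted p = 0.0235), neither of which was called. Outlying samples were not tested, as each condition had 3 arrays.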

How the results depend on the processing

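No named gene's treatment difference changed sign while called under the alternatives run, but the balance of rises and falls turned with 75th percentile scaling at the steps from GV to MII (0 and 19 became 29 and 8), from the 8-cell stage to the morula (14 and 6 became 7 and 17), from MII to the 1-cell stage (8 and 4 became 4 and 5) and from the morula to the blastocyst (13 and 8 became 8 and 9). Quantile normalization turned the first and second of these too (14 and 9, and 10 and 13). The counts of called members fell most with normexp background correction: 2 of 9 for T247 and 1 of 3 for MGCD0103 at the 1-cell stage, 18 of 35 and 15 of 36 at the 2-cell stage, 2 of 15 for T247 at the 4-cell stage, 15 of 29 and 14 of 23 for the changes between stages with T247 and MGCD0103, 1 of 4 between the inhibitors at the 2-cell stage, and 36 of 62 over the untreated steps. The series table's values, which cover 18 members, gave 2, 1, 5, 5, 3, 5, 3, 1 and 16 in the same order. The study's filter gave 6 for MGCD0103 at the 1-cell stage, 22 for T247 at the 2-cell and 9 at the 4-cell stage, and 18 and 14 for the changes. The 75th percentile scaling and quantile normalization each gave 1 for MGCD0103 at the 1-cell stage. Between the inhibitors, a fit of only the arrays compared gave 1 at the 1-cell and 7 at the 2-cell stage, and array weights 2 and 8.

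Leaving out each array in turn gave 1 to 4 for MGCD0103 at the 1-cell stage, 1 to 4 between the inhibitors at the 2-cell stage, 33 to 37 and 29 to 37 for T247 and MGCD0103 at the 2-cell stage. With the replicate block the 2-cell counts were 36 and 37, but same-numbered samples did not deviate together (correlations from -0.16 to 0.19 in the treatment comparisons), so the numbers pair nothing. The filter on the other stages and the slide block on control arrays (62 over the untreated steps) were chosen after seeing the data. With the looser positive-and-significant flag, the mean number of member probes per array was 84 in GV and 69.3 in MII oocytes, 71, 84, 65.3 and 68.7 in 1-, 2-, 4- and 8-cell embryos, 64.7 in morulae, 74 in blastocysts, 75.3, 104 and 84.7 with T247 at the 1-, 2- and 4-cell stage and 77.7 and 102 with MGCD0103 at the 1- and 2-cell stage. The causes of these shifts were not tested.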
